A study of Arabidopsis thaliana with 6 samples.

Results

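The NPR and BOP genes of Arabidopsis thaliana encode a small family of 6 related proteins, and all 6 were measured here, as the probe sets AT1G64280_at (NPR1), AT4G26120_at (NPR2), AT5G45110_at (NPR3), AT4G19660_at (NPR4), AT3G57130_at (BOP1) and AT2G41370_at (BOP2). They were picked by locus from a table of 27826 rows, of which 27241 matched a RefSeq gene and were tested. The choice was made with the nuclear and cellular values of these arrays known, so the family's own values are given as a description. Its calls in the fit over all genes are counted once beside the share of all genes called, and support nothing. RNA came from whole embryos at the 16-cell stage, 72 h after hand pollination. On 3 arrays it came from embryo nuclei pulled down with INTACT, in which a tagged and biotinylated nuclear envelope protein marks the nuclei of chosen cells, here with a marker for the entire embryo. On the other 3 arrays it was total RNA of intact embryos picked out with a micromanipulator. Plants of both groups grew on soil in long days. The accession and genotype of the plants and the promoters of the INTACT parts are not given in the sources used here. The labels call the 3 arrays of a group biological replicates. The method of isolation and the RNA compartment cannot be told apart in this design.

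Proteins of the family carry a BTB/POZ domain, through which such proteins can join CULLIN3 ubiquitin ligases, and ankyrin repeats, and they act on genes through TGA bZIP transcription factors. NPR1 is a co-activator of salicylic acid responses, while NPR3 and NPR4 are salicylate-binding co-repressors of the same genes. NPR2 is the closest relative of NPR1. BOP1 and BOP2 (BLADE ON PETIOLE) are known for leaf, flower and abscission zone development at organ boundaries rather than for salicylate sensing.

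Values are log2 of the deposited RMA intensities, and each difference is nuclear minus cellular. Array medians lay between 2.47 and 2.68, there are no detection calls, and a difference between dim values is compressed. With 3 arrays in a group, precision is limited. Markers of the labelled tissue were weak on the nuclear arrays. Of 12 embryo markers, 4 lay above the array median on every nuclear array, ATML1 and MP among them, against 10 on every cellular array. LEC1, WOX8 and PIN7 were at or below the median on all nuclear arrays, but PIN7 was so on all cellular arrays too. DRNL was the 1 embryo marker with a difference above 0 (0.45). Of 15 seed coat markers, 14 lay above the median on every nuclear array, against 10 on every cellular array. Across genes, cellular replicate 3 was the cellular array nearest the nuclear ones, with r between 0.79 and 0.82 to them, against 0.69 to 0.77 for cellular replicates 1 and 2.

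NPR3 was bright in nuclear RNA and the other 5 genes were near or below the array median in both kinds of RNA. NPR3, a co-repressor that salicylate inactivates, measured 8.14, 6.57 and 8.07 on nuclear replicates 1 to 3, against 2.78, 3.21 and 4.51 on cellular replicates 1 to 3. On the linear scale of the deposited table these are intensities of 281, 95.1 and 269 in nuclear RNA, against 6.89, 9.27 and 22.8 in cellular RNA. All nuclear arrays thus lay above all cellular ones. The lowest nuclear value was 2.06 above the highest cellular value, a gap wider than the range within the nuclear arrays (1.56) or the cellular arrays (1.73). The NPR3 means were 7.59 ± 0.88 in nuclear and 3.50 ± 0.90 in cellular RNA (SD, n = 3 each), a log2 difference of 4.09 (SE 0.60), or 17.0-fold. Ranked from the largest rise, this difference was number 13 of the 27241 genes tested. The cellular level of NPR3 was not uniform: it stood 0.31 and 0.72 above the array median in cellular replicates 1 and 2 and 1.98 above it in cellular replicate 3. In bulk RNA, fewer cells of a type and less RNA per cell cannot be told apart, and this holds for each gene below as well.

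**Figure D1:**
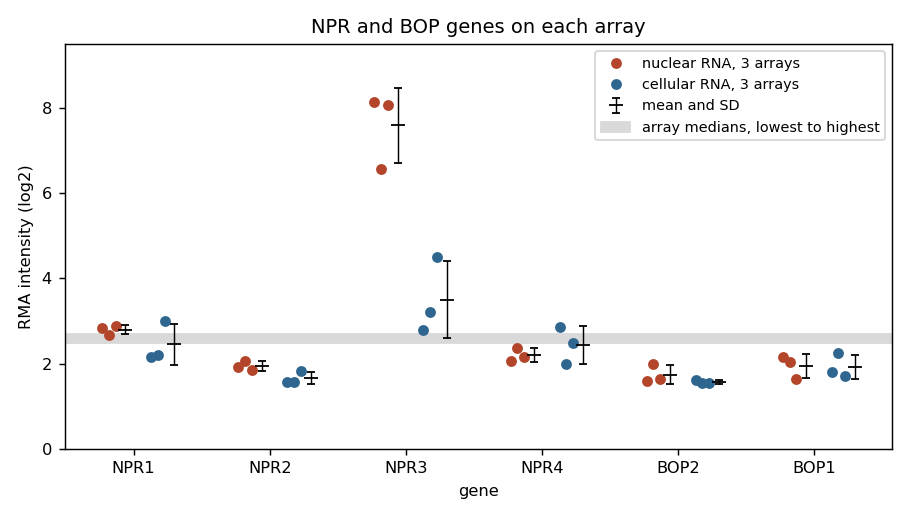
RMA intensity (log2) of the 6 NPR and BOP genes on each array, with the 3 nuclear arrays left of the 3 cellular ones, a dash and bar for the mean and SD, and a grey band over the array medians of 2.47 to 2.68. NPR3 alone lies far above the band on the nuclear arrays, at 6.57 to 8.14, while no value of the other 5 genes exceeds 3.01.

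NPR1, the co-activator of the family, measured 2.83, 2.68 and 2.88 on the nuclear arrays, against 2.15, 2.19 and 3.01 on cellular replicates 1 to 3. The groups overlap, since cellular replicate 3 was higher than every nuclear array. Its log2 difference was 0.34 (SE 0.28). NPR2, its closest relative, measured 1.91, 2.07 and 1.84 in nuclear RNA, against 1.57, 1.57 and 1.83 in cellular RNA. All nuclear values of NPR2 lay above the cellular ones, but the gap was 0.02 and every value was below its array median, by 0.61 to 0.92. The log2 difference of NPR2 was 0.28 (SE 0.18).

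NPR4, the other co-repressor, did not follow NPR3. It measured 2.06, 2.37 and 2.16 on the nuclear arrays, against 2.86, 1.98 and 2.48 on the cellular arrays. The groups overlap, with cellular replicate 2 lowest and cellular replicate 1 highest, and 1 of 6 arrays was above its median. The log2 difference of NPR4 was -0.24 (SE 0.27), the only negative one in the family.

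Both BOP genes were below the array median on every array. BOP1 measured 2.16, 2.04 and 1.64 in nuclear RNA, against 1.80, 2.25 and 1.71 in cellular RNA. BOP2 measured 1.60, 2.00 and 1.63 in nuclear RNA, against 1.62, 1.54 and 1.54 in cellular RNA. For each gene the groups overlap, and the log2 differences were 0.03 (SE 0.24) for BOP1 and 0.17 (SE 0.19) for BOP2. NPR2, BOP1 and BOP2 were at or below the array median on all 6 arrays, as were 29.2% of all tested genes. A difference between nuclear and cellular RNA was not detectable for these dim genes, which does not show that their levels were alike.

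In the limma fit across all 27241 genes (two-sided, Benjamini-Hochberg adjusted p under 0.05), 1 of the 6 genes was called higher, NPR3, and 0 lower. The same fit called 5.86% of all genes, 1.15% higher and 4.71% lower. The NPR3 call was lost with a single array left out in 3 cases: without nuclear replicate 1 (log2 difference 3.82), without cellular replicate 1 (3.73) and without cellular replicate 2 (3.95). Without cellular replicate 3 the difference was 4.59. For 2 of the 6 genes, NPR3 and NPR2, every nuclear array lay above every cellular one. Over all genes the groups were separate in 33% of cases, and in 18.6% with the nuclear arrays above. Since the family was chosen with this contrast known, nothing is read from these counts. Counts at an unadjusted p under 0.05 are also given below for gene lists. The share of all genes at that cut was not counted and cannot be under 5.86%, so nothing is read from those counts either.

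Within each group, the median of the seed coat marker list ordered the arrays as NPR3 did. TT4, TT5, LDOX, BAN, AHA10, TTG2 and MYB5 had this order in both groups, and the other markers of the list did not. For the 15 seed coat markers the median was 6.89, 5.84 and 5.88 on nuclear replicates 1 to 3, against 3.11, 4.41 and 5.30 on cellular replicates 1 to 3. Their difference was above 0 for 15 of 15 genes (median 1.30), limma called 0, and at an unadjusted p under 0.05 it found 4 higher. The summed linear intensity was 2622 to 6071 in nuclear RNA, against 413 to 3206 in cellular RNA. As with NPR3, nuclear replicate 1 was the highest of the nuclear arrays, nuclear replicate 2 the lowest, and cellular replicate 3 the highest of the cellular arrays. The seed coat medians of nuclear replicates 2 and 3 were close, at 5.84 and 5.88, where NPR3 was at 6.57 and 8.07. NPR3 in turn was nearly level on nuclear replicates 1 and 3, at 8.14 and 8.07. The shared nuclear order thus rests on small differences.

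The limma fit called 1.15% of all genes higher and 4.71% lower. Genes of green tissue, among them those of Rubisco and antenna proteins, included 5 of 10 that limma called higher in nuclear RNA and 0 called lower. Their median was 7.01, 7.17 and 6.68 on the nuclear arrays, against 3.63, 3.87 and 4.47 on the cellular arrays. Unlike NPR3, it was highest of the nuclear arrays on replicate 2, but like NPR3 it rose from cellular replicate 1 to cellular replicate 3. Their summed intensity was 1999 to 3926 in nuclear RNA, against 246 to 699 in cellular RNA. Early wound and stress genes included 3 of 11 called higher and 0 called lower, with summed intensities of 876 to 1983 in nuclear RNA, against 189 to 402 in cellular RNA. The wound median was highest on nuclear replicate 3, at 6.32, where NPR3 was at 8.07, and it was 3.84 on nuclear replicates 1 and 2. On cellular replicates 1 to 3 the wound median was 3.21, 3.93 and 4.32, rising in the same order as NPR3. Across all genes, cellular replicates 1 to 3 neared the nuclear arrays in that order too (r to nuclear replicate 1 of 0.69, 0.74 and 0.80). The order is therefore not particular to NPR3 or to these lists.

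Embryo markers ran the other way. Of 12, limma called 8 lower in nuclear RNA and 0 higher, against 4.71% lower and 1.15% higher among all genes. The embryo marker median was 2.53, 2.83 and 2.25 on the nuclear arrays, against 7.41, 6.66 and 6.09 on the cellular arrays. Their summed intensity was 202 to 299.6 in nuclear RNA, against 789.7 to 1882 in cellular RNA. Endosperm markers were dim by their medians, at 1.84 to 2.08 in nuclear RNA, against 1.66 to 1.71 in cellular RNA. PHE1, FWA and ZOU rose above the array median on some arrays, PHE1 furthest, at 4.95 on nuclear replicate 2. Of the 11 endosperm markers, limma called 0 (1 at an unadjusted p under 0.05). On all arrays, 8 of the 11 were at or below the median, against 29.2% of all tested genes. The summed intensity of the endosperm markers was 39.0 to 74.4 in nuclear RNA, against 37.5 to 45.3 in cellular RNA. No marker was listed at 0. The part of seed coat, green tissue or wound-responsive RNA in the NPR3 difference was not tested.

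**Figure D2:**
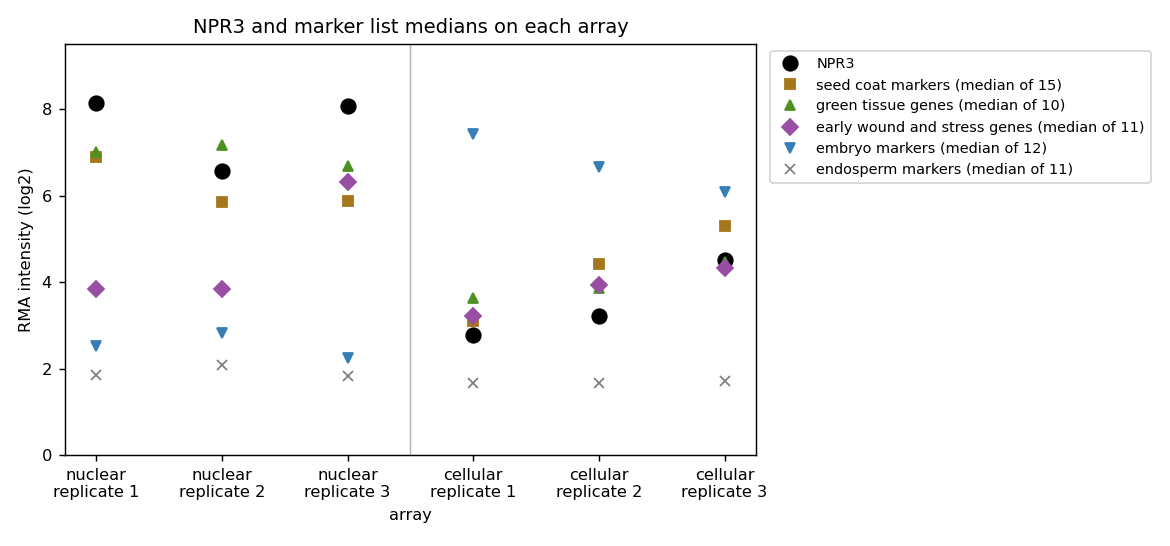
RMA intensity (log2) of NPR3 and the median of 5 marker lists on each array, nuclear arrays on the left. NPR3 and the seed coat and green tissue medians are higher on the nuclear arrays, the embryo median is higher on the cellular arrays, and cellular replicate 3 has the highest NPR3 (4.51), the highest seed coat median (5.30) and the lowest embryo median (6.09) of the cellular arrays.

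The genes whose profiles lay nearest to that of NPR3 over the 6 arrays were RIPK (AT2G05940), a receptor-like cytoplasmic kinase, NUDT4 (AT1G18300), a Nudix hydrolase, and BON1 (AT5G61900), a copine. Likeness was the Euclidean distance between log2 values centred on each gene's mean, which was 0.66 for RIPK, 0.90 for NUDT4 and 0.91 for BON1. RIPK measured 6.85, 5.66 and 7.27 on the nuclear arrays, against 2.12, 2.83 and 3.75 on the cellular arrays. Its pattern shared the low nuclear replicate 2 and the high cellular replicate 3 of NPR3. The log2 differences were 3.69 for RIPK, 3.68 for NUDT4 and 3.83 for BON1. They are descriptions, since these genes were picked for their likeness to NPR3.

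**Figure D3:**
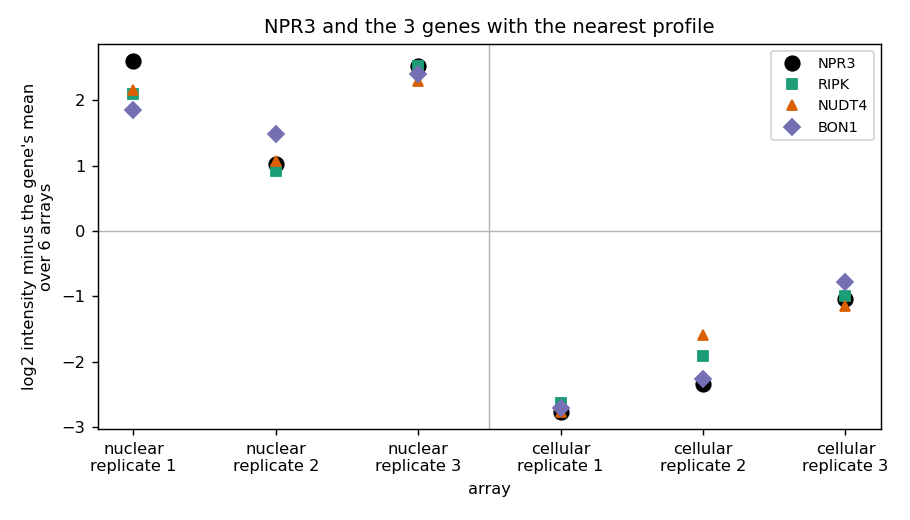
Log2 intensity minus the gene's mean over the 6 arrays, for NPR3 and the 3 genes with the nearest profile, nuclear arrays on the left. All 4 genes are above their mean on the nuclear arrays and below it on the cellular arrays, with nuclear replicate 2 lowest of the nuclear and cellular replicate 3 highest of the cellular arrays.

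Within the family, the centred profile of NPR3 was 4.76 to 5.71 from those of the other 5, while these were 0.33 to 1.22 from each other, NPR2 and BOP2 being the nearest pair. Nearest to NPR1 were CNBT1, AGL34 and AT5G55780, at 0.14 to 0.18. Nearest to NPR2 were NAC090, AT5G52750 and AT1G77790, at 0.06 to 0.08. Nearest to NPR4 were AT3G11880, AT3G22845 and MAC5C, at 0.12 to 0.14. Nearest to BOP2 were AT3G09540, LRB3 and AT5G03820, at 0.06 to 0.08, and nearest to BOP1 were AT5G47020, AT1G73780 and ASIL2, at 0.07 to 0.11. Since the distance leaves out a gene's level, these neighbours need not be as dim as the member: AT3G22845, near NPR4, measured 7.17 to 8.18 over the 6 arrays.

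The genes around the family were followed in 6 lists with 81 genes in all, of which limma called 1 higher and 1 lower, against 5.86% of all genes. List counts at an unadjusted p under 0.05 have no share of all genes beside them and are descriptions only. Of the 81, 35 were at or below the array median on all 6 arrays, against 29.2% of all tested genes. That share applies to the same counts for each list below. Their median log2 difference was 0.22, against 0.13 over all tested genes, and 59 of 81 were above 0, against 60.9% of all genes. Cyclic loess between arrays took these to a median of 0.06, against 0.02 over all genes, and to 47 of 81 above 0, against 52.2% of all genes.

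Of 10 TGA factors, the DNA-binding partners of the family, 5 were at or below the array median on all arrays and 0 above it on all arrays. PAN (AT1G68640), a TGA factor of floral patterning and a known partner of the BOP proteins, was the single one called. Of all genes, the same fit called 5.86%. PAN measured 1.92, 2.14 and 1.63 on the nuclear arrays, against 3.65, 2.99 and 2.97 on the cellular arrays, so the groups do not overlap. It fell by 1.31 on the log2 scale (SE 0.27, limma adjusted p = 0.0439), that is 2.48-fold lower in nuclear RNA. The call did not hold up: it was lost when any 1 of the 6 arrays was left out, with limma adjusted p from 0.0554 to 0.120. Across every setting tried, the limma adjusted p of PAN lay between 0.0342 and 0.120. TGA2 (AT5G06950), which recruits NPR proteins to defence promoters, measured 2.75, 2.44 and 1.78 in nuclear RNA, against 2.71, 1.98 and 1.88 in cellular RNA, and overlapped between groups. The median difference of the TGA list was 0.06, and turned to -0.08 after cyclic loess and -0.07 after quantile normalization.

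Among 13 NPR partners and regulators, limma called 0, while 2 were lower and 0 higher at an unadjusted p under 0.05. This list had the most genes above the array median on all arrays among the 6, 8 of 13. Its median difference was -0.27, or -0.02 after cyclic loess. SNI1 (AT4G18470), a negative regulator found as a suppressor of npr1, measured 1.91, 1.79 and 1.70 in nuclear RNA, against 2.66, 2.40 and 2.79 in cellular RNA. The groups do not overlap, with a log2 difference of -0.82 (SE 0.19, limma adjusted p = 0.0628). CUL3B (AT1G69670), a CULLIN3 scaffold of the ubiquitin ligase, measured 2.44, 2.42 and 2.88 in nuclear RNA, against 3.97, 3.10 and 4.11 in cellular RNA (log2 difference -1.15, SE 0.32, limma adjusted p = 0.0958). Its paralogue CUL3A (AT1G26830) was well above the array medians everywhere, at 5.40, 7.04 and 6.28 in nuclear RNA, against 6.72, 5.99 and 6.60 in cellular RNA, and overlapped. NIMIN1 (AT1G02450), a small protein that binds NPR1 and restrains it, measured 2.73, 2.06 and 2.18 in nuclear RNA, against 1.69, 1.70 and 1.89 in cellular RNA (log2 difference 0.56, SE 0.24, limma adjusted p = 0.222). All nuclear arrays of NIMIN1 were above the cellular ones, at dim levels.

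Of 14 genes of salicylate synthesis and its regulators, limma called 0, and 1 was higher and 0 lower at an unadjusted p under 0.05. ICS1 (AT1G74710), the isochorismate synthase of the main stress-induced route to salicylate, measured 2.32, 2.15 and 1.77 in nuclear RNA, against 1.98, 1.88 and 2.02 in cellular RNA. It was below the median on all arrays, and the groups overlap. PAL2 (AT3G53260), a phenylalanine ammonia-lyase at the entry to phenylpropanoids, was bright, at 9.17, 8.18 and 8.63 in nuclear RNA, against 5.50, 7.53 and 7.93 in cellular RNA. Its groups do not overlap, with a log2 difference of 1.67 (SE 0.66, limma adjusted p = 0.197). As with NPR3 and the seed coat, green tissue and wound medians, PAL2 was lowest on cellular replicate 1. Leaving that array out took the PAL2 difference to 0.93, and the cause was not tested. SAG101 (AT5G14930), a partner of EDS1 in immune signalling, had 2.41, 3.25 and 4.31 in nuclear RNA, against 2.41, 2.26 and 2.19 in cellular RNA (log2 difference 1.03, limma adjusted p = 0.246). The list's median difference was 0.36, or 0.14 after cyclic loess.

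Of 8 enzymes that modify salicylate, limma called 0, and 1 was higher and 0 lower at an unadjusted p under 0.05. BSMT1 (AT3G11480), a salicylate methyltransferase, measured 2.18, 2.22 and 2.44 in nuclear RNA, against 1.84, 1.84 and 1.75 in cellular RNA (log2 difference 0.47, SE 0.18, limma adjusted p = 0.180). DLO1 (AT4G10500), a salicylate hydroxylase, overlapped between groups at a difference of 0.36 (limma adjusted p = 0.345). The median difference of these enzymes was 0.36, or 0.16 after cyclic loess, and 5 of 8 were at or below the median on all arrays.

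Among 18 genes known to respond to salicylate, limma called 1 higher and 0 lower, against 1.15% and 4.71% of all genes. WRKY18 (AT4G31800), a WRKY transcription factor of defence, measured 6.95, 7.53 and 8.51 on the nuclear arrays, against 3.81, 3.85 and 4.66 on the cellular arrays. All nuclear arrays lay above the cellular ones, and WRKY18 was 11.7-fold higher in nuclear RNA (log2 difference 3.55, SE 0.45, limma adjusted p = 0.0124). The call was lost without cellular replicate 1 (difference 3.41, limma adjusted p = 0.0539) and without cellular replicate 2 (3.43, limma adjusted p = 0.0653). The limma adjusted p of WRKY18 lay between 0.00488 and 0.0653 over all alternatives. Its nuclear replicate order was not that of NPR3: replicate 3 was highest and replicate 1 lowest, and the wound and stress median was also highest on nuclear replicate 3, at 6.32. PR1 (AT2G14610), the marker gene of NPR1-dependent defence, was below the median on all arrays, at 1.62, 2.35 and 1.68 in nuclear RNA, against 1.41, 1.62 and 1.51 in cellular RNA. In all, 13 of the 18 response genes were at or below the median on every array, PR2 and PR5 among them, against 29.2% of all tested genes. The list's median difference was 0.27, or 0.08 after cyclic loess.

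Of 18 genes of the BOP pathway and organ boundaries, limma called 0, and 3 were higher and 0 lower at an unadjusted p under 0.05. PNY (AT5G02030), a BELL homeodomain factor that acts against BOP genes in the stem, measured 4.62, 5.12 and 3.29 in nuclear RNA, against 2.2, 2.90 and 3.00 in cellular RNA. The groups of PNY do not overlap (log2 difference 1.65, SE 0.51, limma adjusted p = 0.122), and without nuclear replicate 3 it was called (difference 2.17, limma adjusted p = 0.0373, against up to 0.307 over the alternatives). STM (AT1G62360), the homeobox gene of shoot meristem maintenance, measured 2.89, 3.20 and 2.51 in nuclear RNA, against 2.12, 2.06 and 2.26 in cellular RNA (log2 difference 0.72, limma adjusted p = 0.134). AS1 (AT2G37630), a MYB factor of leaf polarity, measured 4.49, 4.26 and 4.13 in nuclear RNA, against 3.09, 3.96 and 4.08 in cellular RNA, so that nuclear replicate 3 and cellular replicate 3 nearly met. AS2 (AT1G65620), which works with AS1 and is a direct target of the BOP proteins, was below the median on all arrays and overlapped between groups (log2 difference 0.05). The list's median difference was 0.37, with 17 of 18 genes above 0, or 13 of 18 after cyclic loess.

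**Figure D4:**
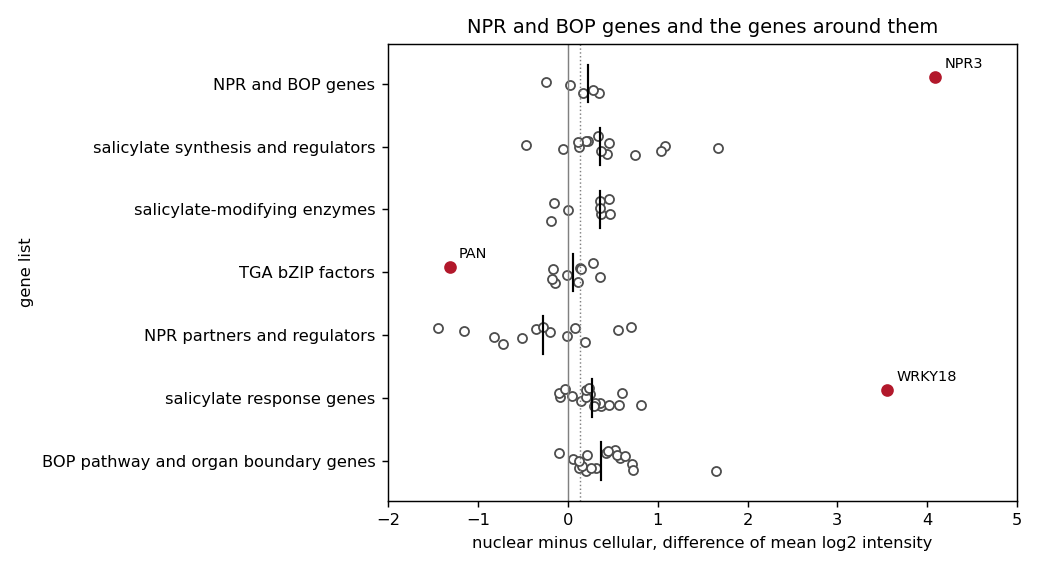
Difference of mean log2 intensity, nuclear minus cellular, for the 6 NPR and BOP genes and the 6 lists around them; each circle is a gene, filled circles passed the limma threshold, black lines are list medians and the dotted line is the median of all genes, 0.13. NPR3 (4.09) and WRKY18 (3.55) stand far to the right and PAN (-1.31) is the called gene on the left.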

How the data were processed

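RNA of 3 nuclear and 3 cellular embryo samples was measured on 1 array each. Per the submitters' processing notes, the authors obtained the deposited intensity values with RMA. Array type, probe set definitions and RMA version are not given in the sources used here. Since RMA normally equalises probe distributions between arrays, it can shift differences between RNA pools of unlike make-up. Values were linear and were log2-transformed, with no further normalization. Loci were named through a RefSeq table (TAIR10.1), which matched 27241 of 27826 rows; the other 585 enter only the fit over all rows. NPR2 is the name used for AT4G26120, which that table leaves unnamed. No member shares all its values with another row. Differences came from R 4.3.3 with limma 3.58.1 (eBayes after lmFit, 4 residual and 2.33 prior degrees of freedom, threshold 0.05). The fit was tried on simulated data with independent noise for each gene. That run checked the size and sign of changes put in, and held no shifts between arrays. No build is named for the table, so no coordinates are given.

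The members and lists were chosen with earlier results of these data known. Named were all members, the called genes of each pathway list or else its 2 lowest p, 8 genes fixed by name, and the 3 nearest profiles per member. Alternatives were cyclic loess, quantile normalization, log2(value + 8), a replicate block, brighter genes (14206), a trended robust variance, all rows and each array left out.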

Additional observations from a re-analysis of the deposited data

How the results depend on the processing

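NPR3 kept its sign in 10 of 10 alternatives, with differences of 3.34, at log2(value + 8), to 4.60. NPR1 (0.14 to 0.62), NPR2 (0.08 to 0.37) and NPR4 (-0.48 to -0.03) kept theirs in all 10, BOP2 (-0.02 to 0.24) in 9 and BOP1 (-0.18 to 0.19) in 4. These counts say little about robustness. For NPR3 and NPR2, whose groups did not overlap, neither leaving an array out nor log2(value + 8) could change the sign. The replicate block left every member's difference as it was. With single arrays left out the ranges were 0.19 to 0.62 for NPR1, 0.22 to 0.37 for NPR2, 3.73 to 4.60 for NPR3, -0.48 to -0.03 for NPR4, 0.04 to 0.24 for BOP2 and -0.08 to 0.19 for BOP1. NPR2 moved to 0.081 after cyclic loess, 0.10 after quantile normalization and 0.086 at log2(value + 8). BOP2 moved to -0.021 after cyclic loess and 0.0069 after quantile normalization. The median of all genes was 0.02 after cyclic loess, against 0.13 as deposited, and NPR3 lay 4.54 above that median, against 3.96 as deposited. Over all genes 313 were higher and 1284 lower, against 489 and 846 after cyclic loess, 179 and 845 at log2(value + 8), and 28 to 419 and 254 to 1688 with single arrays left out (28 and 254 without cellular replicate 2, 54 and 436 without cellular replicate 1, 188 and 622 without nuclear replicate 2, and 828 lower without nuclear replicate 1). The replicate block gave 118 higher and 571 lower genes and 0 calls among TGA factors. Same-numbered arrays did not deviate together from their group means (r of -0.05, -0.06 and -0.01 across genes). No array's deviations correlated best with those of its own number. With 3 arrays in a group, this cannot settle whether the numbers pair the samples. The 1 lower TGA factor, PAN, became 0 at log2(value + 8), among brighter genes, where PAN was not tested, and with any array left out (0 to 0). Among NPR partners 1 gene, SNI1, was called lower after cyclic loess and quantile normalization. With single arrays left out, 0 to 1 salicylate response genes and 0 to 1 BOP pathway genes were called higher. The cause of these moves was not tested. Dimness limits NPR1, NPR2, NPR4, BOP1 and BOP2, which lay near or below the array medians.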
